A study of Mus musculus with 3 samples.

Results

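Integrins and laminins were examined in 3 RNA sequencing libraries of cultured mouse cortical astrocytes. The members were the genes of the deposited table named as integrin alpha subunits (Itga), integrin beta subunits (Itgb) or laminin alpha, beta and gamma chains (Lama, Lamb, Lamc). They were chosen by symbol with no cut on their values, but with earlier results of these data known. The rule leaves out 1 integrin gene by name, so sums, shares and pairs below are over the genes it keeps. The rule found 34 genes of the 19471 in the table, 23 integrin subunits (16 alpha and 7 beta) and 11 laminin chains (5 alpha, 3 beta and 3 gamma). Astrocytes were taken from the cortex of wild-type pups at postnatal day 1 and cultured for 7 days, and poly(A) RNA was sequenced from 3 biological replicates (pups 5, 6 and 8, here replicates 1, 2 and 3). There was 1 group, so no treatment, genotype or age could be compared, and the title of the series concerns the histone variant H2BE. The sample titles give postnatal day 1, while the sample names in the descriptions begin with P0. Each of those names ends in Ctrl, so the libraries are labelled as controls. The labels do not say whether the cells were passaged, sorted or purified, nor on what surface they were grown.

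Integrins are receptors made of 1 alpha and 1 beta subunit that join the extracellular matrix to the actin cytoskeleton. The beta subunit Itgb1 pairs with many alpha subunits, whereas several others pair with few. Laminins are large secreted trimers of an alpha, a beta and a gamma chain, the sheet-forming proteins of basement membranes. In the brain, astrocyte endfeet rest on such a membrane around vessels and under the pia, and astrocyte integrin alpha v beta 8 is known for activating latent TGF-beta.

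Values are the deposited normalized read counts, and levels were compared between genes only after division by the kilobases of exon annotated for each gene (the union of its exons, here called the level per kilobase). The libraries held 9858626 to 25128038 reads over all genes. Of the 34 members, 28 reached a mean of 10 normalized counts (82.4%, against 71.6% of all genes), and 10 had a mean of 1000 or more (29.4%, against 15.2%). The median level per kilobase was 30.2 over the 34 members and 33.9 over all genes. Markers of astrocytes were high in every library: 9 of 10 had a mean of 1000 or more, and their summed normalized count was 165580, 164939 and 147746 in replicates 1, 2 and 3. Microglial markers were also present, with 13 of 14 in the table, each with a mean of 10 or more, and a summed count of 37006, 28935 and 25674.

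**Figure D1:**
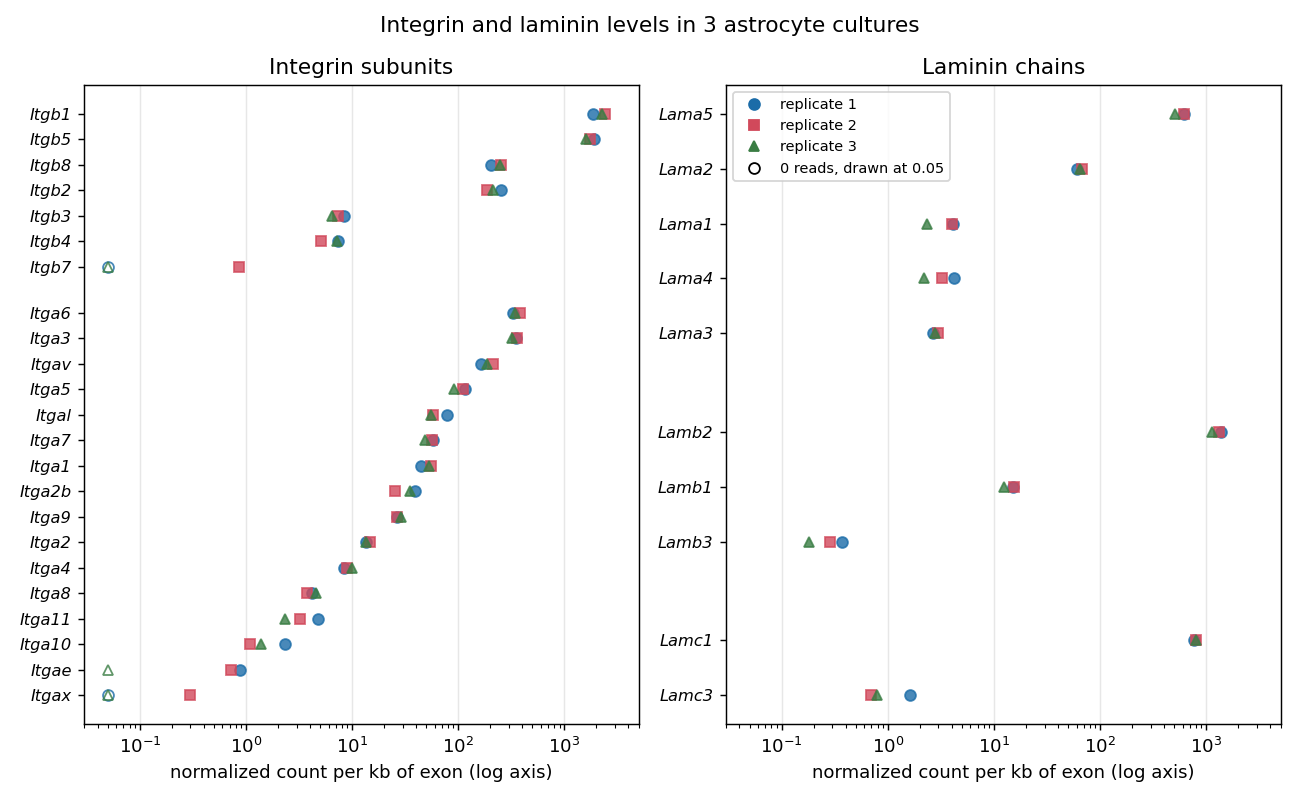
Normalized count per kilobase of exon (log axis) of the 23 integrin subunits and 10 laminin chains, with 1 point for each of the 3 libraries and open points at 0.05 for 0 reads. Itgb1 and Itgb5 stood highest among the integrins at means of 2182 and 1740, and Lamb2, Lamc1 and Lama5 highest among the laminins at 1277, 795 and 578.

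The beta subunits were led by 2 genes. Itgb1 (ENSMUSG00000025809, mm10 chr8:128685654-128733200, plus strand) had a level per kilobase of 1873, 2392 and 2282 in replicates 1, 2 and 3, a mean of 2182 ± 273 (SD, n = 3). Itgb5 (ENSMUSG00000022817, chr16:33829665-33949338, plus strand), a partner of Itgav in vitronectin receptors, had 1879, 1731 and 1609, a mean of 1740 ± 135. In replicate 1 Itgb1 was 0.997 times Itgb5, and in replicates 2 and 3 Itgb1 was higher by 1.38 and 1.42 times, so their ranges overlapped. The mean log2 difference of Itgb5 from Itgb1 was -0.32 ± 0.15 (SE), with an adjusted p of 0.0307 in limma's test of the within-library difference. That call ended with a constant prior and without replicate 2 or replicate 3 (adjusted p of 0.0993, 0.251 and 0.415 in limma), and over 10 alternatives the adjusted p ranged from 9.88e-05 to 0.415.

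Itgb8 (ENSMUSG00000025321, chr12:119158022-119238802, minus strand), the subunit that with Itgav releases active TGF-beta, stood at 203, 252 and 247 per kilobase, a mean of 234 ± 26.6. Itgb2, the common beta subunit of leukocyte integrins, stood at 254, 185 and 211, a mean of 217 ± 34.8. The ranges of Itgb8 and Itgb2 overlapped, and which was higher differed between libraries. Itgb3, the partner of Itga2b on platelets, and Itgb4, the partner of Itga6 in hemidesmosomes, were far lower, at 7.44 ± 0.962 and 6.54 ± 1.30 per kilobase. Itgb7, a subunit of lymphocytes, had 0, 5 and 0 reads. The limit of 3 reads that a count of 0 allows equals 2.44 normalized counts in replicate 1 and 3.59 in replicate 3, for counting error only. Of the summed level per kilobase of the beta subunits, Itgb1 gave 49.6% ± 4.60, Itgb5 39.7% ± 4.13, Itgb8 5.32% ± 0.450 and Itgb2 4.97% ± 0.988.

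**Figure D2:**
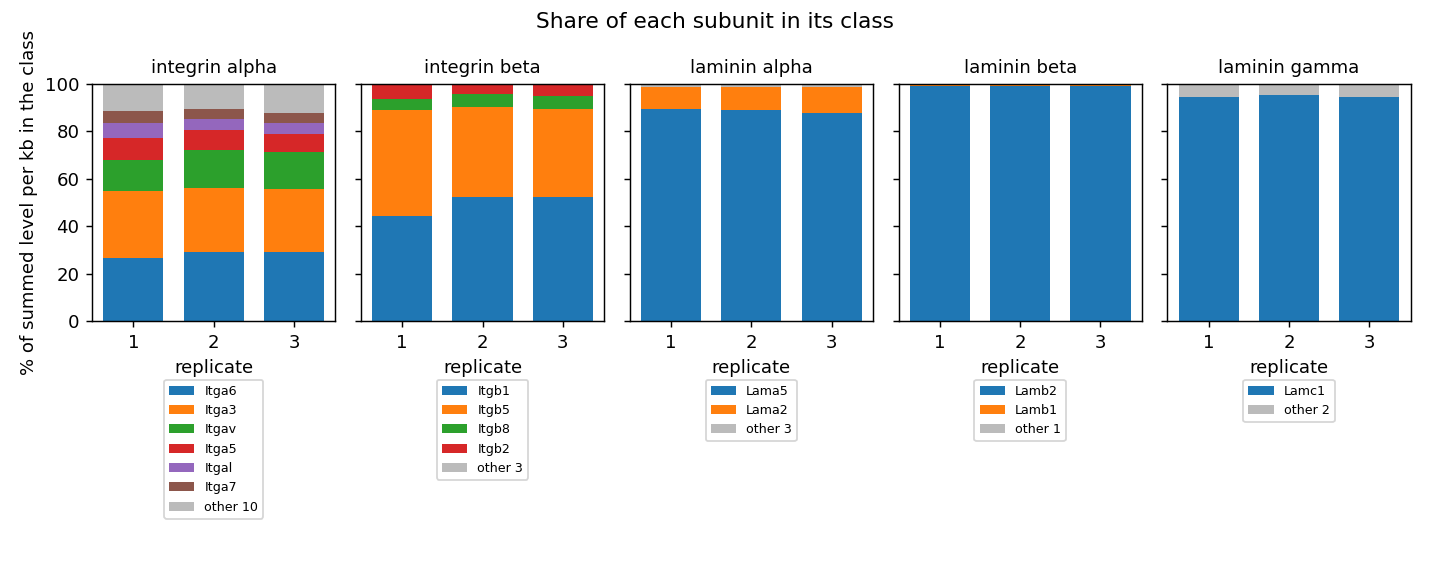
Share (%) of each gene in the summed level per kilobase of its class, with 1 bar for each library. Lamb2 and Lamc1 made up 98.9% and 94.7% of their classes on average, whereas Itga6 and Itga3 made up 28.1% and 27.4% of the integrin alpha class.

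Among the alpha subunits, the laminin receptors Itga6 and Itga3 were highest. Itga6 (ENSMUSG00000027111, chr2:71745616-71858416, plus strand) stood at 326, 380 and 346 per kilobase, a mean of 351 ± 27.4. Itga3 (ENSMUSG00000001507, chr11:95044474-95076801, minus strand) stood at 347, 354 and 322, a mean of 341 ± 17.2. Their ranges overlapped, and the higher of the 2 was Itga3 in replicate 1 and Itga6 in the others. With the length of the longest annotated transcript in place of the exon union, Itga6 was 1.83 times Itga3, its exon union being 9025 nucleotides long and its longest transcript 4310.

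The RGD-binding receptors followed. Itgav (ENSMUSG00000027087, chr2:83724397-83806916, plus strand), the alpha subunit of vitronectin receptors, stood at 163, 212 and 185 per kilobase, a mean of 187 ± 24.5. Itga5, the fibronectin receptor, stood at 115, 111 and 90.4, a mean of 105 ± 13.0. Each of these ranges lay clear of its neighbours, so Itga3, Itgav, Itga5 and Itgal came in that order in each library. Itga7, a further laminin receptor, and Itga1, a collagen and laminin receptor, stood at 54.5 ± 5.54 and 51.0 ± 5.96, with overlapping ranges. Itga9, a receptor for tenascin-C and osteopontin, stood at 27.3 ± 1.52.

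The remaining alpha subunits had lower levels. The collagen receptor gene Itga2 stood at 13.9 ± 0.759 per kilobase, and Itga4, which binds VCAM-1 and fibronectin, at 9.06 ± 0.808. Itga8, the nephronectin receptor, and Itga11, a collagen receptor of fibroblasts, stood at 4.17 ± 0.384 and 3.43 ± 1.23, with overlapping ranges. Itga10, a collagen receptor of cartilage, rested on 15, 12 and 6 reads, and 33.5% of its exon length is shared on the same strand with another annotated gene, so its value is uncertain. Itgae, the partner of Itgb7, rested on 5, 7 and 0 reads and Itgax, a subunit of dendritic cells, on 0, 3 and 0. The genes Itga1 and Itga2 lie 21.0 kb apart on chromosome 13, and Itga1 was the higher per kilobase in each library.

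Integrin transcripts of blood cells were present beside those of adherent cells. Itgal (ENSMUSG00000030830, chr7:127296260-127335138, plus strand), the alpha subunit of LFA-1 and a partner of Itgb2, had normalized counts of 516, 377 and 366, a mean of 420 ± 83.4. Itgb2 had 775, 565 and 645, a mean of 661 ± 106. By the chi-square test Itgal differed between libraries (adjusted p = 1.32e-09), a call that ended without replicate 1 (adjusted p = 0.808, chi-square test). Itgal and Itgb2 were highest in replicate 1, where the summed microglial markers were 1.21 times their mean, against 1.23 times for Itgal and 1.17 times for Itgb2. In replicates 2 and 3 the marker sum was 0.948 and 0.841 of its mean, Itgal 0.899 and 0.872, and Itgb2 0.854 and 0.974. The part of microglial RNA in these values was not tested, and in bulk RNA fewer cells of a type and less RNA per cell cannot be told apart. The genes of the microglial list did not all follow their sum. Csf1r ran at 7005, 5210 and 4335. Ptprc, named after its value was seen, ran at 451, 443 and 484 (adjusted p = 0.363, chi-square test). Of 9 T and NK cell markers only Lck and Cd4 had a row, at mean counts of 22.5 ± 3.77 and 1.13 ± 1.23. Fermt3, the kindlin of blood cells, named after its value was seen, ran at 691, 522 and 518.

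Itga2b, known as a platelet subunit, had normalized counts of 211, 139 and 190, a mean of 180 ± 37.2, and was lowest in replicate 2. It differed between libraries (adjusted p = 4.54e-06, chi-square test), but not without replicate 2 (adjusted p = 0.384, chi-square test). Of 6 platelet and megakaryocyte genes in the table, Pf4 was the highest with 199, 134 and 183, also lowest in replicate 2, followed by Gp1ba at 28.6 ± 7.41 and Gp1bb at a mean of 10.7. The platelet glycoprotein gene Gp9 was at 3.15 ± 3.61, and Itgb3, the partner of Itga2b, at 43.9 ± 5.67. The part of platelet lineage RNA was not tested.

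For the laminins, 1 chain dominated each class. Lamb2 (ENSMUSG00000052911, chr9:108479736-108490530, plus strand), the beta chain of synaptic and vascular basement membranes, stood at 1386, 1304 and 1141 per kilobase, a mean of 1277 ± 125. Lamb1 (ENSMUSG00000002900, chr12:31265234-31329644, plus strand), the widespread embryonic beta chain, stood at 15.2, 15.3 and 12.5, a mean of 14.3 ± 1.55. Lamb2 was higher by 91.4, 85.4 and 91.0 times in replicates 1, 2 and 3, and by 56.2 times on average with the longest transcript as the length. Lamb3, a chain of epithelial laminin, rested on 3, 4 and 1 reads.

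To show what the start regions of a high and a low gene look like in the 2 families, the RefSeq windows of Itgb1 and Itgb7 and of Lamb2 and Lamb1 are printed up to the annotated gene start, with CG dinucleotides in capitals (GRCm38.p6, 5′ to 3′ on the gene's strand, at chr8:128685404-128685653 plus strand, chr15:102231945-102232185 minus strand, chr9:108479612-108479735 plus strand and chr12:31265043-31265233 plus strand).
Itgb1: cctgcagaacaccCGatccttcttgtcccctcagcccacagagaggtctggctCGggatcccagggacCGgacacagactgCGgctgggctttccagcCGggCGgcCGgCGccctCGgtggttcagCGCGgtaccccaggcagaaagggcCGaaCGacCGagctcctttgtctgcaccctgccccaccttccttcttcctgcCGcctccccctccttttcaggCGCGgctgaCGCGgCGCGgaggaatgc
Itgb7: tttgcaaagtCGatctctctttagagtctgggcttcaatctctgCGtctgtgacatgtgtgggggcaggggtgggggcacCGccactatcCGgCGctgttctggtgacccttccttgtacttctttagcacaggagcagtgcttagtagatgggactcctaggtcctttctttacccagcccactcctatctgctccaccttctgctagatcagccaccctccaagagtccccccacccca
Lamb2: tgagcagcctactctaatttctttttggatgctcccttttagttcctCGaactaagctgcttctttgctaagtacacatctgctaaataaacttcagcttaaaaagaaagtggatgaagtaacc
Lamb1: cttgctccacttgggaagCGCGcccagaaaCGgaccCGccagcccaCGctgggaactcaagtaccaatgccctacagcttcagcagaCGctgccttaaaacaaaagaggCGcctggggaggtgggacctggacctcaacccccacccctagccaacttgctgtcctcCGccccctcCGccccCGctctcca

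The whole windows of 300 bases run from 250 before to 50 after a RefSeq start, which can differ from the annotated gene start. Over these windows Itgb1 held 27 CG dinucleotides and Itgb7 held 5, whereas the abundant Lamb2 held 4 and the scarce Lamb1 held 18. CG reads the same on both strands. Of 32851 RefSeq windows, 34.6% held 15 or more. Entries were found for 21 members with 23 windows, and 8 windows held 15 or more. Some windows lay inside the annotated gene, such as that of Itga9 at chr9:118711442-118711741, where the annotated gene starts at 118606690. For members with a mean count of 100 or more it was 6 of 15 windows, for those with a mean of 10 to under 100 it was 2 of 3 windows, and for members under 10 it was 0 of 5 windows. These are counts of windows and not of genes, since Itga3 and Lamb3 each enter with 2. The third laminin beta chain, the scarce Lamb3, held 5 and 2 in its 2 windows, which overlap each other and lie inside the annotated gene. These counts are a description of letters in the windows.

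Lamc1 (ENSMUSG00000026478, chr1:153218922-153332786, minus strand), the gamma chain of most laminins, stood at 772, 805 and 807 per kilobase, a mean of 795 ± 20.0. Its log2 values had an SD of 0.04, and 10.2% of genes with a similar mean (0.5 to 2 times its own) had a smaller one. Lamc1 gave 94.7% ± 0.396 of the summed level per kilobase of the gamma chains. Lamc3 rested on 12, 9 and 4 reads.

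Lama5 (ENSMUSG00000015647, chr2:180176373-180225859, minus strand), the alpha chain of mature basement membranes, stood at 610, 621 and 504 per kilobase, a mean of 578 ± 64.5. Lama2 (ENSMUSG00000019899, chr10:26980036-27619758, minus strand), the chain lost in a congenital muscular dystrophy and known from astrocyte endfeet, stood at 61.0, 68.2 and 64.0, a mean of 64.4 ± 3.62. Lama5 was higher by 10.01, 9.10 and 7.88 times, or by 5.29 times on average with the longest transcript. Lama1, the embryonic chain, Lama4, the chain of vessels, and Lama3, an epithelial chain, stood at 3.50 ± 1.00, 3.19 ± 0.999 and 2.81 ± 0.169, with overlapping ranges between neighbours. Lama1 and Lama4 changed places with the longest transcript as the length. In this class Lama5 gave 88.6% ± 0.933 and Lama2 9.94% ± 1.10 of the summed level per kilobase.

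The 3 leading chains differed among themselves. On the log2 scale per kilobase, Lamb2 lay 0.68 ± 0.08 (SE) above Lamc1 (adjusted p = 2.23e-06, limma), and in 3 of 3 libraries, and the call held in 10 of 10 alternatives. Lama5 lay below Lamc1 by -0.46 ± 0.08 (adjusted p = 0.000111, limma), also in 3 of 3 libraries, and this call ended without division by length, where the difference was -0.0031 (adjusted p = 0.971, limma). Of the 8 laminin chains tested against Lamc1, 1 lay above and 7 below it, where 3.96% and 94.6% of all genes tested did so. Against Itgb1, 18 of 18 other integrin subunits tested lay below, where 98.4% of all genes did so and 0.921% lay above. Both references are among the more abundant genes, so these counts are near the background.

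Receptor pairs and trimers were described by the subunit with the lowest level per kilobase, which says nothing of protein. Of 23 known integrin pairs, 21 had both subunits in the table, 17 had both at a mean count of 10 or more, and in 6 the lower subunit reached 100 per kilobase. These 6 were Itgb1 with Itga6, Itga3, Itgav or Itga5, and Itgav with Itgb5 or Itgb8. In the pairs with Itgb1 the alpha subunit was the lower one throughout, Itgb1 being 6.22 times Itga6 and 11.7 times Itgav. The size of such ratios depends on the length used. The log2 difference of Itga6 from Itgb1 was -2.63 with the exon union and -1.66 with the longest transcript. In the pair of Itgav and Itgb8 the 2 subunits were closest, at 1.25 times. Itgb5 was 9.32 times Itgav. Summed over the genes kept in each class, beta subunits were 3.43, 3.48 and 3.65 times alpha subunits per kilobase. That class ratio is given with the exon union only, and the integrin gene that the rule leaves out is not in it. Itgb1 alone was 1.68, 1.95 and 2.06 times the sum of its 12 alpha partners. That excess of Itgb1 rests on the division by length. Without it the 12 partners summed to normalized counts of 9013, 10256 and 9288, against 7644, 9761 and 9313 for Itgb1.

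**Figure D3:**
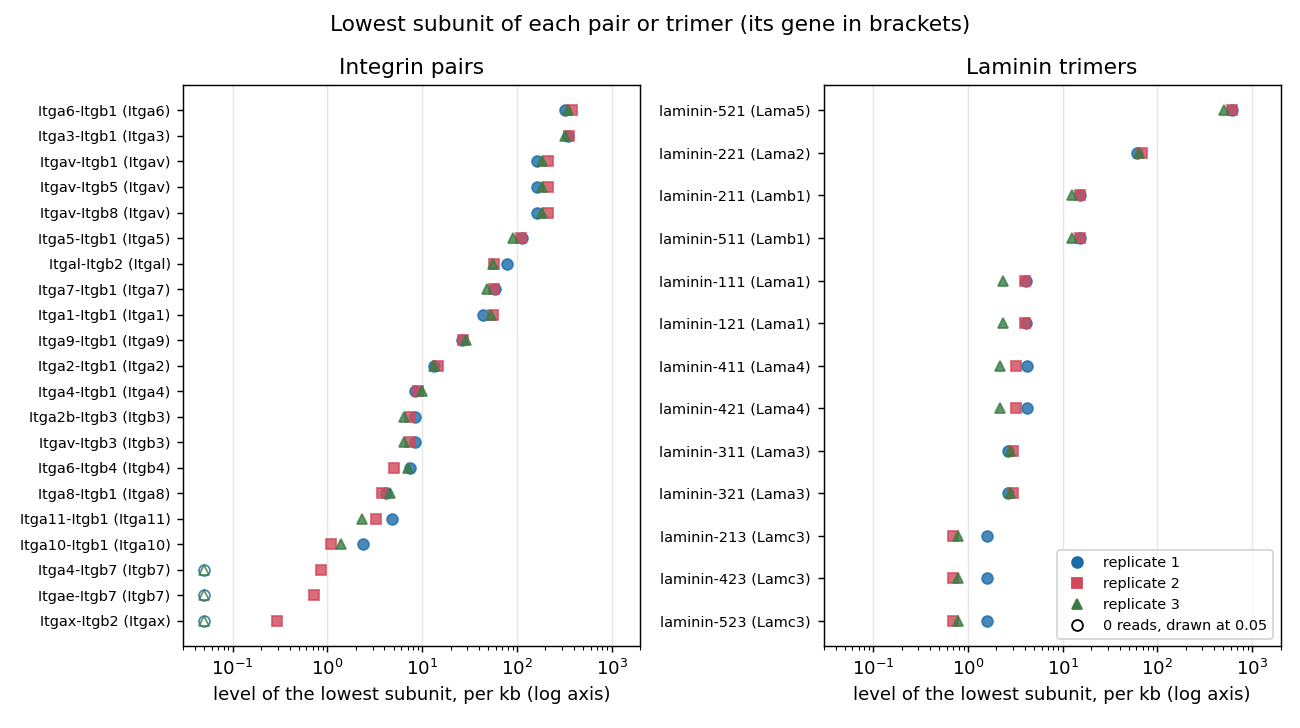
Level per kilobase (log axis) of the lowest subunit of 21 integrin pairs and 13 laminin trimers, named in brackets, with 1 point for each library. Laminin-521 stood apart from the other trimers, with 578 for its lowest chain Lama5 against 64.4 for the lowest chain of laminin-221.

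Of 14 laminin trimers, 10 had all chains at a mean count of 10 or more, and in 1 the lowest chain reached 100 per kilobase. That was laminin-521, made of Lama5, Lamb2 and Lamc1, whose lowest chain stood at 610, 621 and 504. In laminin-221, with Lama2, the lowest chain stood at 61.0, 68.2 and 64.0. The trimers with Lamb1 in place of Lamb2, laminin-511 and laminin-211, were at 15.2, 15.3 and 12.5, the level of Lamb1.

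Variation between the 3 cultures was set against read sampling with a chi-square test on whole reads recovered from the table, adjusted over all genes tested. Of 28 members tested, 16 differed between libraries at an adjusted p under 0.05 (57.1%), and 55.4% of all 13941 genes tested did so, a share near the background. The median SD of log2 values was 0.16 over the members tested and 0.16 over all genes at that minimum. The highest library was 1.10 to 1.92 times the lowest among the 16, with a median of 1.24. No member tested had an SD above the 95th percentile of genes of similar mean. The test sets counts against sampling alone, so it calls small differences in abundant genes. Each library is 1 pup, so differences between pups, between dishes and between preparations cannot be told apart.

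Of the 12 integrin subunits that differed between libraries, 5 were lowest in replicate 1, 2 in replicate 2 and 5 in replicate 3. No such count over all genes is given here, so this split is a description only. Itgb1, with normalized counts of 7644, 9761 and 9313, was lowest in replicate 1 (adjusted p = 3.62e-75, chi-square test). So were Itgav with 1750, 2277 and 1987 (adjusted p = 1.94e-20, chi-square test), Itgb8 with 2248, 2783 and 2729 (adjusted p = 6.76e-17, chi-square test) and Itga1 with 822, 1029 and 995 (adjusted p = 6.64e-07, chi-square test). Without replicate 1 the calls of Itgb8 and Itga1 ended (adjusted p = 0.695 and 0.629, chi-square test), so for these 2 the call rests on replicate 1. Itgb5 was lowest in replicate 3, with 6676, 6149 and 5718 (adjusted p = 1.29e-18, chi-square test).

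The laminin chains Lama5 and Lamb2 were lowest in replicate 3. Lama5 had normalized counts of 6949, 7069 and 5741 (adjusted p = 2.77e-34, chi-square test) and Lamb2 had 8430, 7933 and 6938 (adjusted p = 2.24e-32, chi-square test). Without replicate 3 the call of Lama5 ended (adjusted p = 0.861, chi-square test), as did those of Itga3, Itga5 and Itga7. Lamc1, with 6382, 6663 and 6675, did not pass (adjusted p = 0.0877, chi-square test), but did with expected reads from the authors' size factors or from TMM-scaled totals (adjusted p = 0.0111 and 0.00354). The summed astrocyte markers were also lowest in replicate 3, at 0.927 of their mean, and whether this bears on the laminins was not tested. The genes of that list did not all follow the sum. Gfap ran at 54430, 57624 and 44794. Sox9 at 2072, 2018 and 2237 and Glul at 8554, 8907 and 9447, both named after their values were seen, were highest in replicate 3. Replicate 3 had the fewest reads.

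Other calls also ended when 1 library was left out. That of Itga6 ended without replicate 2 (adjusted p = 0.0937, chi-square test). That of Lama2, the endfoot chain, ended without replicate 1 or replicate 2 (adjusted p = 0.254 and 0.501, chi-square test). Lama4, with normalized counts of 50.4, 38.7 and 26.3, had the widest range of the 16, and its call ended without replicate 1 or replicate 3 (adjusted p = 0.214 and 0.189, chi-square test) and with no filter on low counts (adjusted p = 0.0536, chi-square test). The calls of Itgb1, Itgb5, Itgav, Itgb2 and Lamb2 held without each library in turn.

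**Figure D4:**
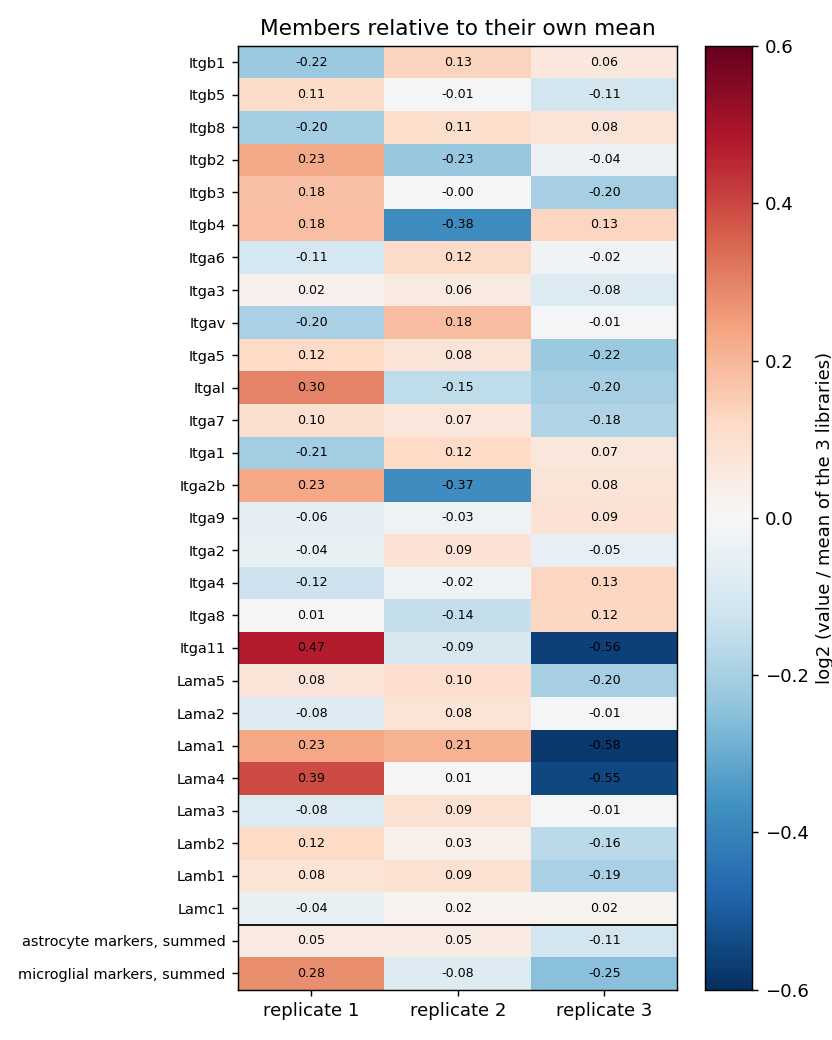
log2 ratio of each library to the mean of the 3 libraries, for 27 members with a mean count of 10 or more and for the summed astrocyte and microglial markers. Itgb1, Itgb8, Itgav and Itga1 were lowest in replicate 1 (-0.22, -0.20, -0.20 and -0.21), and Lama5 and Lamb2 in replicate 3 (-0.20 and -0.16).

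Genes that act with the members were taken from lists that were set with earlier results of these data known. Of 27 adaptors and focal adhesion genes, 26 were in the table, and each of these had a mean count of 10 or more (71.6% of all genes did so). The highest per kilobase were the actin crosslinkers Flna at 3479 ± 268, Actn1 at 1837 ± 51.1 and Actn4 at 1320 ± 24.5. Tln1 and Fermt2, the talin and kindlin that bind beta tails, named after their values were seen, stood at 746 ± 54.9 and 660 ± 53.0. Ilk, the gene of integrin-linked kinase and named likewise, was at only 12.6 ± 2.18, but 76.8% of its exon length overlaps Taf10 on the opposite strand, and the strand setting of the counting is not given in the sources used here, so its value is uncertain. Of the 26, 21 differed between libraries by the chi-square test (55.4% of all genes tested did so). The test calls small differences in abundant genes, and 16 of the 26 had a mean count of 1000 or more, against 15.2% of all genes.

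Ligand genes ranged from very high to near 0. Of 21 ligand genes, 19 had a mean count of 10 or more (71.6% of all genes did so). They were led by Ccn1, a matricellular ligand of Itgav and Itga6 receptors, at 5522 ± 174 per kilobase, Thbs1 at 3481 ± 172 and Ccn2 at 1321 ± 292. Fibronectin (Fn1), the ligand of Itga5, was at 818 ± 83.7 and tenascin-C (Tnc), a ligand of Itga9, at 815 ± 84.6, both named after their values were seen. Vitronectin (Vtn), a main ligand of Itgav with Itgb5, was at 0.984 ± 0.343, a normalized count of 2.00. Of the ligand genes, 13 of 19 tested differed between libraries, against 55.4% of all genes tested.

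Of 21 other basement membrane genes and laminin binders, 21 had a mean count of 10 or more (71.6% of all genes did so), and 14 of 21 tested differed between libraries (55.4% of all genes tested did so). The highest per kilobase were the collagen-binding protein gene Sparc at 18716 ± 760, the dystroglycan gene Dag1, a non-integrin laminin receptor, at 1676 ± 16.8, and the collagen IV chain gene Col4a5 at 899 ± 18.8. Dag1 was thus above each integrin alpha subunit per kilobase in each library.

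Markers of other cells that can hold integrins or laminins ranged widely, and are given as mean normalized counts for the highest genes of each list and for some at or near 0. The astrocyte list was led by Gfap at 52283 ± 6679, Clu at 29125 ± 2573 and Mlc1 at 26911 ± 1801, and the microglial list by Csf1r at 5517 ± 1362, Ctss at 4114 ± 482 and C1qa at 3845 ± 936. Of the 7 endothelial genes with a row, 3 reached a mean of 10, where 71.6% of all genes did so. These were Kdr at 690 ± 59.6, Flt1 at 90.6 ± 18.9 and Cdh5 at 11.9 ± 3.16, with Pecam1 at 5.43 ± 1.54. Of the mural list it was 6 of 8, led by the smooth muscle genes Acta2 at 48318 ± 806 and Tagln at 31716 ± 1419 and by Pdgfrb at 900.2 ± 99.2, while the pericyte genes Kcnj8 and Abcc9 were at 1.01 ± 0.884 and 0.586 ± 0.511. It was 8 of 9 for fibroblast and meningeal genes, led by Islr at 2691 ± 422, Ogn at 1658 ± 220.0 and Col1a2 at 1072 ± 94.2, with Lum at 2.20 ± 1.38.

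For epithelial and choroid plexus genes it was 3 of 7. Folr1 had counts of 425, 334 and 386, and Krt18 had 13.0, 4.25 and 15.5. Ttr, the transthyretin gene of choroid plexus, had 31.7, 557 and 13.2, so replicate 2 stood apart from the others. Epcam and Cdh1, general epithelial genes, were at 0.743 ± 0.710 and 2.59 ± 1.44. Of oligodendrocyte and Schwann cell genes 5 of 7 reached that mean, among them Olig1 at 5896 ± 1027 and Prx at 349 ± 14.6. Of neuronal genes it was 5 of 8, led by Map2 at 2564 ± 55.0, Stmn2 at 669 ± 129 and Syt1 at 167 ± 114, with Slc17a7 at 0.786 ± 1.36. The part of these cells in the laminin and integrin values was not tested.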

How the data were processed

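The deposited table holds a signal per gene and library, read counts that the authors divided by 1 size factor per library; DESeq2 and the build mm10 are named in the submitters' processing notes. No aligner, counter, strand setting or annotation release is named there: each is not given in the sources used here. Within 0.05 reads, 100% of values were whole multiples of 1 read, and whole reads were recovered from them. Replicates 1, 2 and 3 held 14380993, 25128038 and 9858626 reads. The authors' mean column was not used.

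Of 19471 genes, 19372 matched GENCODE vM21 (mm10), which gave positions and exon lengths. Levels per kilobase were compared by an intercept-only limma fit of within-library log2 differences from Itgb1 or Lamc1 (pseudocount 1, trended prior, 13901 genes with a mean of 10 or more). Its p-values share the error of the reference gene: in a simulated comparison on 13910 genes, 11% of genes equal to Itgb1 and 100% of those at 2 times its level were called. A chi-square test set the reads of each gene against library totals (mean of 10 or more and 30 reads in all). In simulation on 13941 genes it called 83% of 1.5-fold and 98% of 3-fold changes and 0.226% of unchanged genes. Those reads were drawn with sampling error alone, with the changes put in replicate 1. The rate of false calls therefore says nothing of variation between pups. Benjamini-Hochberg adjustment ran over all genes tested. Alternatives covered length, pseudocount, filter, prior, scaling and leaving out each library.

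All members but 1 are named; of other lists the 3 highest genes, of marker lists also genes at or near 0, and others where stated, except a few not reported here. Members, lists and tests were chosen with earlier results of these data known. Software was limma 3.58.1 and edgeR 4.0.16 (TMM only) under R 4.3.3, and numpy 2.4.6, pandas 2.3.3 and matplotlib 3.10.9 under Python 3.11.15.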

Additional observations from a re-analysis of the deposited data

How the results depend on the processing

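No level difference from Itgb1 or Lamc1 changed direction in 260 refits, and 256 kept their side of the threshold; the exceptions were Itgb5 (3) and Lama5 (1), given above. The count of 16 members that differed between libraries ranged from 11 to 13 with 1 library left out and from 15 to 17 with other scaling or no filter. By the spread alone, 0 members lay above the 95th percentile of genes of similar mean, a stricter measure by construction. Shares depended on length. Itga6 was 1.03 times Itga3 with the exon union and 1.83 times with the longest transcript. Without division by length, the mean counts were 3164 for Itga6, 2005 for Itgav and 1947 for Itga3, so Itgav then stood above Itga3. With the longest transcript, Itgb8 gave 6.45%, Lama5 82.5%, Lamb2 98.2% and Lamc1 92.6% of their classes, and without division by length Itgb5 gave 33.7%, Itgb8 14.0%, Lama5 85.0% and Lamb2 98.2%. Of 23 neighbours in the order of levels, 10 pairs had overlapping ranges and 2 turned with the longest transcript. No paired analysis was possible because there is 1 group. The lowest members rest on few reads, which limits them.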
